A study of Arabidopsis thaliana with 2 samples.

Results

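The precursor of miR163 was described from SPARE libraries, which record where precursors of microRNAs are cut in the plant Arabidopsis thaliana. RNA fragments with a free 5′ end received an adaptor there and were copied from primers that sit downstream in each precursor. The members are all sequence tags that the authors filed under the name mir163. These were 30 of 1755 distinct tags (315 of 33192 reads) in the library of the fiery mutant, and 16 of 677 tags (39 of 12129 reads) in the library of wild-type Col-0. mir163 is 1 of 153 precursor names in the files, and it was chosen by the position and reads of its main 5′ end in these same libraries, so its values are a description. Both genotypes were sampled as a mix of seedlings grown for 2 weeks with leaves and inflorescences of plants grown for 5 weeks, under 16 h of light. The labels give the mutant no allele, and the mutated gene was not measured. Each genotype had 1 library, so no difference could be set against the spread between replicates, and no test was made. Shares carry Clopper-Pearson and ratios carry conditional binomial intervals, both exact at 95%. They cover counting error and not PCR duplication, because the reads had no molecular identifiers.

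Plant microRNA precursors are hairpins from which DICER-LIKE1 releases a duplex of the microRNA and its partner strand by paired cuts. Most hairpins need a cut below the duplex and a cut above it, whereas long stems can be cut in a series of steps. miR163 is a young microRNA of Arabidopsis with an unusually long precursor, and stepwise cutting of that precursor from its base by DICER-LIKE1 has been described in earlier work. It is unusually long for a product of DICER-LIKE1, and it targets genes of S-adenosylmethionine-dependent methyltransferases.

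MIR163 (AT1G66725) lies on chromosome 1, plus strand, in the TAIR10.1 reference. Its annotated precursor is a single exon of 331 nt from 24884066 to 24884396, between AT1G66720, which ends 1585 nt upstream, and LIG6, a DNA ligase gene that starts 284 nt downstream. The mature RNA of 24 nt occupies positions 24884359 to 24884382 on the 3′ arm. It is shown first, written as DNA 5′ to 3′ with its seed (bases 2 to 8) in capitals.
miR163: tTGAAGAGgacttggaacttcgat
The stretch in which most reads began is shown next, from 24884338 to 24884435, with the mature RNA in capitals.
3′ arm: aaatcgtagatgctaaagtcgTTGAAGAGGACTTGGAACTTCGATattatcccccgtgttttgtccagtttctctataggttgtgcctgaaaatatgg
The opposite strand of the stem is shown from 24884070 to 24884110, with the bases facing miR163 in the predicted fold in capitals.
5′ arm: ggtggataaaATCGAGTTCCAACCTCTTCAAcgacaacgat

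The main 5′ end of mir163 lay at 24884404 in both libraries, outside the annotated precursor and 8 nt past its end. The fragment that starts there is the same tag of 32 nt in both libraries, and none of its bases belongs to the mature RNA.
main fragment: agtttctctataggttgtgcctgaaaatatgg
It had 255 reads in fiery, 81.0% of the mir163 reads (76.2 to 85.1). In wild type it had 12 reads, or 30.8% (17.0 to 47.6). This end had the most reads of any mir163 end in each library, and mir163 was chosen for it. A cut just below the mature RNA, here called the base-side cut, leaves a 5′ end at 24884383, and the main end lay 21 nt beyond it. That distance is about the length of a microRNA duplex.

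In fiery, 2 further ends stood directly beside the main end, with 10 reads at 24884405 and 8 reads at 24884406, followed by 2 reads at 24884408 and 1 each at 24884409 and 24884410. Wild type had 1 read at 24884403, 4 reads at 24884407 and 2 reads at 24884409, and no read at 24884405 or 24884406. With a window of 20 to 23 nt beyond the base-side cut, this first step held 273 reads in fiery (86.7%, 82.4 to 90.2) and 13 in wild type (33.3%, 19.1 to 50.2). The next ends, up to 27 nt beyond the cut, held 4 reads in fiery and 6 in wild type. With a window of 20 to 27 nt, chosen after the data were seen, the shares were 87.9% and 48.7%.

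**Figure D1:**
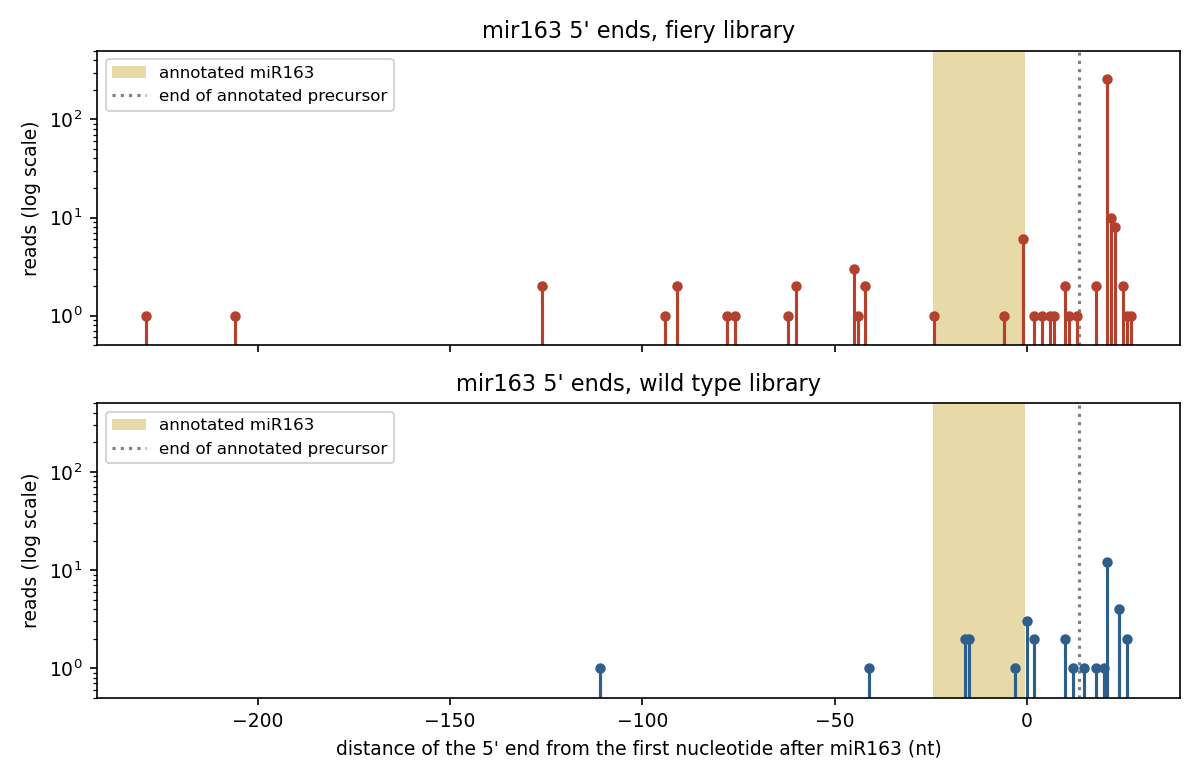
Reads at each 5′ end of mir163 against the distance from the first nucleotide after miR163 (nt), for the fiery library (top) and the wild-type library (bottom), on a log axis of reads. The shaded band is the annotated mature RNA and the dotted line the end of the annotated precursor. The tallest point in both libraries lies at 21 nt, with 255 and 12 reads, and the end 463 nt upstream is not drawn.

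The base-side cut itself had few reads. Fiery had 6 reads at 24884382, the last nucleotide of the annotated mature RNA, and none at 24884383. Wild type had 3 reads at 24884383 and none at 24884382. Within 1 nt of the cut this was 1.90% in fiery (0.702 to 4.10) and 7.69% in wild type (1.61 to 20.9). With tags of 35 nt or less left out, and so without the main fragment, the shares were 17.6% in fiery (6.76 to 34.5) and 15.8% in wild type (3.38 to 39.6). These intervals overlap widely, so no order can be read from them. The tags show the 1 nt offset, with bases of the mature RNA in capitals.
fiery, 24884382: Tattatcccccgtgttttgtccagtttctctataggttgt
wild type, 24884383: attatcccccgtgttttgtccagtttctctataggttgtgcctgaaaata
The exact end at the base thus differed between the libraries by 1 nt, on 6 and 3 reads. The wild-type end is the one that follows the annotated mature RNA directly.

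A cut just above the mature RNA, the loop-side cut, leaves a fragment that starts with miR163. A single fiery read began there, at 24884359, and is shown with the mature RNA in capitals.
fiery, 24884359: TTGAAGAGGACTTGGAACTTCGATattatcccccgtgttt
It made up 0.317% of the fiery reads (0.00804 to 1.76). In wild type 0 of 39 reads began there, which allows a share of up to 7.69% by the limit of 3 counts, and 9.03% by the exact interval. The loop-side cut was thus not detectable in wild type at this depth. A fragment of this kind is still joined to the part below the duplex. What left its 5′ end was not tested, and a single read gives no measure of how often such fragments arose.

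One step further towards the loop, fiery had 3 reads at 24884338 and 1 read at 24884339, or 21 and 20 nt before the loop-side position (4 reads, 1.27%, 0.347 to 3.22). The tag with 3 reads is shown with its bases of the mature RNA in capitals.
fiery, 24884338: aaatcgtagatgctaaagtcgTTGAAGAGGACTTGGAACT
A further 2 fiery reads began at 24884341, and 1 wild-type read began at 24884342. Wild type had no read in the window of 20 to 23 nt upstream of the loop-side cut. Taking the end with the most reads in each window, the fiery ends lay at 24884338, 24884359, 24884382 and 24884404, with 3, 1, 6 and 255 reads. The gaps between them were 21, 23 and 22 nt. In wild type the base-side end and the main end were 21 nt apart. Each window was placed from the annotated mature RNA, so gaps near a duplex length follow from the windows and do not measure steps. The middle fiery gap lies between windows at both ends of the annotated mature RNA, so its nearness to that length is built in. It also rests on the single read at the loop-side cut.

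**Figure D2:**
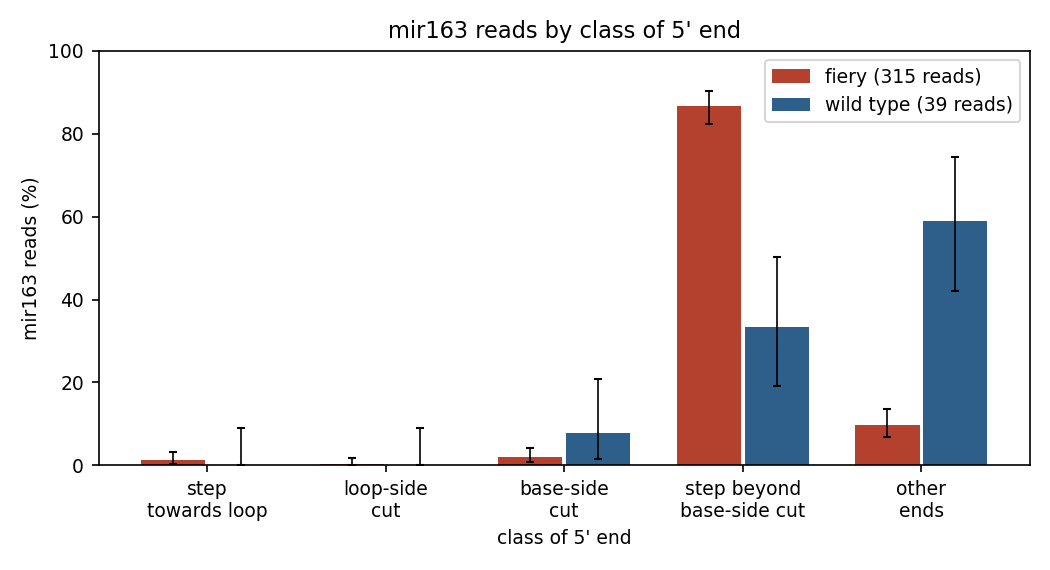
Share of mir163 reads (%) in each class of 5′ end for fiery (315 reads) and wild type (39 reads), with exact 95% intervals as bars. The step beyond the base-side cut held 86.7% in fiery against 33.3% in wild type, and other ends held 9.84% against 59.0%.

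The remaining ends lay along the precursor, upstream of it and past its annotated end. They include ends just past the window of the first step. In wild type these had 4 reads at 24884407 and 2 at 24884409. In fiery these had 2 reads at 24884408 and 1 each at 24884409 and 24884410. All remaining ends together held 31 fiery reads at 23 positions (9.84%, 6.78 to 13.7) and 23 wild-type reads at 13 positions (59.0%, 42.1 to 74.4). Between the base-side cut and the first step beyond it, fiery had 10 reads and wild type 7. Fiery had at most 2 reads at any of these positions (24884385, 24884387, 24884389, 24884390, 24884393, 24884394, 24884396 and 24884401). Wild type had 2 reads each at 24884385 and 24884393 and 1 each at 24884395, 24884398 and 24884401. Inside the mature RNA, wild type had 2 reads each at 24884367 and 24884368 and 1 at 24884380, while fiery had 1 read at 24884377 beside those at the cuts. In fiery the end with the next most reads after the main end, 24884405, had 10 reads (3.17%, 1.53 to 5.76). In wild type it was 24884407, with 4 reads (10.3%, 2.87 to 24.2), an interval that overlaps that of the main end. Some positions were hidden in each library, as given below, so these counts cannot show that a second site was absent.

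Ends before the loop-side cut were few. Inside the precursor and before the mature RNA, fiery had 18 reads at 12 positions, with at most 3 at any of them, and wild type had 2 reads at 2 positions, 24884272 and 24884342. The fiery positions ran from 24884154, which is nt 89 of the precursor, to 24884341. An end at 24883920, 146 nt before the annotated precursor, had 2 reads in fiery and 3 in wild type. It was 1 of 6 ends seen in both libraries, of 40 distinct ends in all. The overlap was not counted over all precursors. Wild type had 39 reads, and the positions hidden in each library differ, so nothing is read from this count. Fiery had 263 reads and wild type 22 at the shared ends, most of them at the main end. Fiery had 17 ends with 1 read each among its 30 ends, and wild type 7 among its 16.

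With the main end included, reads were more concentrated in fiery. A random draw of 39 of the fiery reads would be expected to hold 7.24 distinct ends, against 16 in the 39 wild-type reads. The reads of the main end were among the values that chose mir163, so this contrast is a description. Without that end, fiery had 60 reads at 29 ends and wild type 27 reads at 15 ends, and no draw was made from these. The position of an end also sets the length of its tag. All 7 fiery tags of 35 nt or less that begin past the annotated precursor, and all 8 wild-type tags shorter than 50 nt, end at 24884435. Ends past 24884410 would leave tags under 26 nt, the shortest in the files, so a second step of 21 nt below the main end, with a tag of 11 nt, could not be seen. Tags of 36 to 39 nt are absent from the fiery library and tags of 46 to 49 nt from the wild-type library. With the same last position, this hides ends from 24884397 to 24884400 in fiery and from 24884387 to 24884390 in wild type. The base-side cut would leave 53 nt, which both libraries read in part, and the loop-side cut and the main end are outside the hidden stretches.

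mir163 held 0.949% of the fiery reads (0.847 to 1.06) and 0.322% of the wild-type reads (0.229 to 0.439). Its share was 2.95-fold higher in fiery (2.11 to 4.23). Of 47 precursors whose reads in the 2 libraries added up to 100 or more, 48.9% had an interval above 1 and 38.3% had one below 1. mir163 had rank 17 from the highest ratio, so a higher share in fiery was common. The main end alone, whose reads were among the values that chose mir163, had a ratio of 7.77 (4.37 to 15.2), at 0.768% of that library against 0.0989% in wild type. All other mir163 ends together held 60 fiery and 27 wild-type reads, 0.181% and 0.223% of the libraries, a ratio of 0.812 (0.508 to 1.33). Within these, the ends before the mature RNA gave 1.46 (0.532 to 4.98) and those between the base-side cut and the step beyond it 0.522 (0.179 to 1.62), both on few reads. The hidden positions between that cut and that step differ between the libraries, so the second ratio compares unlike sets of ends. The split into sets of ends was chosen after the data were seen, and its intervals describe counting error in these 2 libraries.

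The direction of the overall ratio depended on the short tag at the main end. With only tags longer than 35 nt, mir163 had 34 fiery and 19 wild-type reads, and the ratio was 0.290 (0.161 to 0.538). Such tags are 40 nt in fiery, where 36 to 39 nt are absent, and up to 50 nt in wild type. That ratio thus compares unlike sets of ends, and the longest tag length differs together with genotype. With distinct tags counted once the ratio was 0.723 (0.382 to 1.42). Tags of 35 nt or less held 89.2% of the mir163 reads in fiery (85.2 to 92.4) and 51.3% in wild type (34.8 to 67.6). Over the whole libraries the order was opposite, with 22.4% in fiery and 65.6% in wild type. The part of tag length and of PCR in the mir163 difference was not tested.

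**Figure D3:**
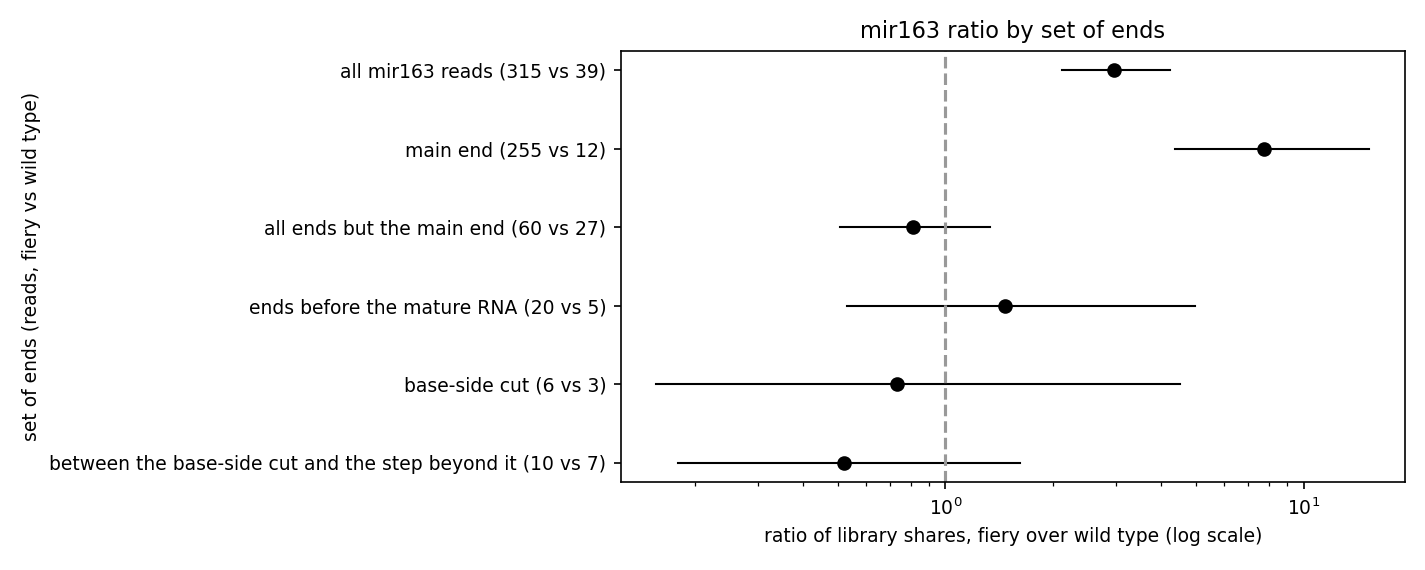
Ratio of the share of library reads in fiery over wild type for sets of mir163 ends, on a log axis, with exact 95% intervals as lines and the reads of both libraries in the labels. The main end lies at 7.77 and all other ends together at 0.812, on either side of the dashed line at 1.

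In predicted folds that took in flanking sequence, pairing ran on past the annotated precursor. In the minimum free energy fold from 60 nt before the precursor to 24884435, 21 of the 24 bases of miR163 paired, with positions 24884080 to 24884100 of the 5′ arm. Of the 21 bases between miR163 and the main end, 16 paired with the 5′ side of the same stem. When the annotated precursor was folded alone, 11 paired, but it ends at 24884396 and holds only part of these 21 bases. These counts thus cover unlike stretches, and no gain in pairing is read from them. In the fold to 24884435, pairs with the 5′ side reached 24884421, 25 nt past the annotated end. The main end, itself unpaired in that fold, thus lay between paired bases. Whether these pairs form an unbroken stem was not checked. On the side of the loop, pairs with the 5′ side near the start of the precursor reached 4 nt above miR163, to 24884355. Pairs with positions further along were not counted. The fiery ends at 24884338 and 24884339 lay outside this paired stretch in the predicted fold. The counts of paired bases in miR163 and in the 21 nt after it were the same with 100 nt added on each side, whereas the last pair moved to 24884494, 98 nt past the annotated end.

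Both arms of the precursor resembled methyltransferase genes. In a blastn search of the 5 chromosomes, the 5′ arm (24884032 to 24884180) matched the sense strand of its upstream neighbour AT1G66720 at 79.4% identity over 160 alignment columns. PXMT1 (AT1G66700) matched at 79.5% over 161 and AT1G66690 at 79.4% over 160. The 3′ arm matched the same genes in antisense, so the arms form an inverted repeat of this gene family. The antisense match that holds miR163 ran from 24884331 to 24884413 for AT1G66720 (84.3% identity over 83 columns) and for PXMT1 (83.1% over 83 columns). AT1G66690 matched from 24884224 to 24884413 at 66.7% over 237 columns, and the pseudogene AT1G66710 from 24884331 to 24884414 at 76.4% over 89 columns. These 4 matches took in the main end and stopped 9 or 10 nt after it, past the annotated precursor. Weaker matches of the 5′ arm were found on chromosome 3 in AT3G44840 (78.5% over 79) and in FAMT (85.7% over 49), a farnesoic acid methyltransferase.

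The stretch of these genes that can pair with miR163 is shown in the sense of each gene, with bases that do not pair by Watson-Crick rules in capitals. Each aligned with 1 gap position, since the site is shorter than miR163 by that position.
PXMT1: atcgagttccaagtcctcttcaa
AT1G66720: atcgagttccaGgtcctcttcaa
FAMT: atcgagttccaagtTTtcttcaa
PXMT1 (24874307 to 24874329, minus strand) and AT1G66690 had the same site, with 23 bases complementary and 0 mismatches. AT1G66720 (24881604 to 24881626, plus strand) had 22 complementary bases and 1 mismatch, a G-U pair. FAMT (chromosome 3, 16380056 to 16380078, plus strand) had 21 and 2, both of them G-U pairs. AT1G66710 had 20 and 3, and AT3G44840 had 19 and 4. These are matches of letters, and cutting of these transcripts was not measured here.

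The main ends of other precursors were counted in the same way. Among those with at least 30 reads and 1 annotated mature RNA on the 3′ arm (mir405 left out), 8.16% of 49 fiery precursors and 11.8% of 34 wild-type precursors had their main end 20 to 23 nt past the base-side position. The rule that chose mir163 used this end, so nothing is read from these shares. In fiery, the median share at the base-side cut was 71.9% and that at the first step beyond it 0.0985%. In wild type these medians were 33.9% and 0.335%. A main end outside the annotated precursor was found in 10.2% of these 49 fiery precursors, and for wild type the share was 20.6% of 34, with mir163 among them each time.

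mir163 was set beside mir822, another long young precursor, and mir472a, from which a regulator of disease resistance genes is cut. The first step beyond the base-side cut held 86.7% of the mir163 reads, 90.1% of the 1558 mir822 reads (88.5 to 91.6) and 88.1% of the 997 mir472a reads (85.9 to 90.0). The base-side cut held 1.90% in mir163, 2.12% in mir822 (1.46 to 2.96) and 0 of 997 reads in mir472a, which allows up to 0.301% by 3 counts (0.369% by the exact interval). For the step towards the loop the values were 1.27% in mir163 (0.347 to 3.22), 0 of 1558 reads in mir822, which allows up to 0.193% by 3 counts (0.237% by the exact interval), and 0.100% in mir472a (0.00254 to 0.558). In wild type, mir822 had 96.0% of its 201 reads at the first step (92.3 to 98.3), where mir163 had 33.3%. mir472a had 4 wild-type reads, too few to compare. These precursors were chosen for a main end at that step.

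**Figure D4:**
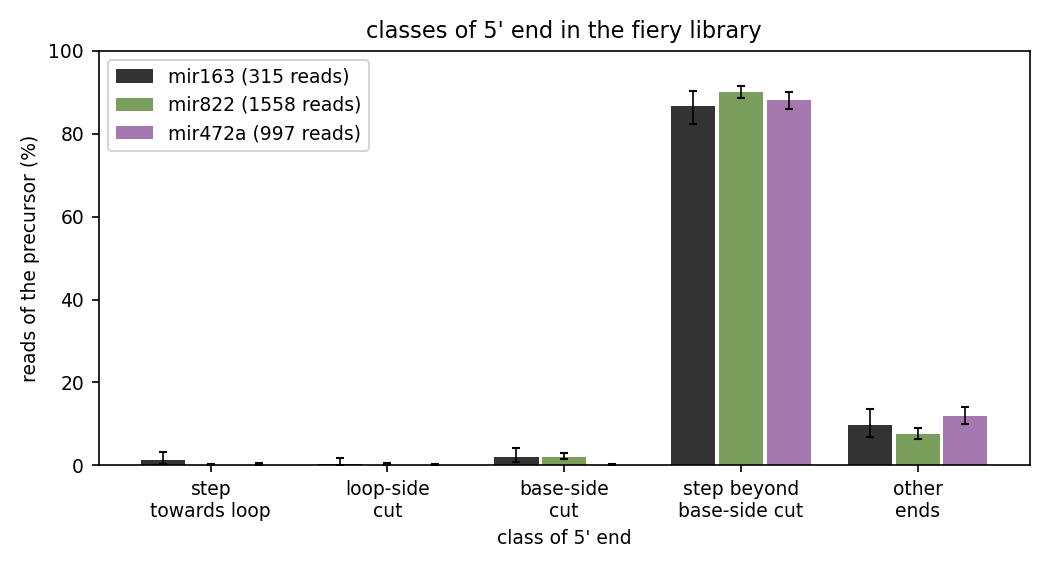
Share of the reads of each precursor (%) in each class of 5′ end in the fiery library, with exact 95% intervals as bars, for mir163 (315 reads), mir822 (1558 reads) and mir472a (997 reads). The step beyond the base-side cut held 86.7%, 90.1% and 88.1%.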

How the data were processed

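Per the labels' protocols, total RNA depleted of ribosomal RNA was ligated to a 5′ adaptor, copied by multiplexed precursor-specific primers, amplified in 18 PCR cycles and sequenced. The submitters' processing notes name Bowtie and TAIR10. Its version and settings are not stated there. The deposited tables hold whole-number read counts per tag and precursor name, which show no normalisation. The depth was 33192 (fiery) and 12129 (wild type) reads.

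Tags were matched exactly to TAIR10.1 (RefSeq, 1-based coordinates) with a 26 nt seed on both strands. All 1755 and 677 tags matched, and every mir163 tag matched once. Of the 153 names, 8 were found after a change of suffix letter. Ends within 1 nt of a cut were counted at it. The arm of a mature RNA came from its name or from RNAfold 2.7.2. Similarity used blastn 2.17.0 and Biopython's aligner; coordinates and sequences come from RefSeq's TAIR10.1. All named ends had at least 2% of a library's mir163 reads or lay at a cut or step; others are given beside them to account for all reads. mir163, the windows, the compared precursors and the alternatives were chosen with earlier results of these data known. On simulated counts for 47 precursors, with shares limited to 2%, the ratio interval held the true value in 95.8% of draws at no difference, 95.4% at 2-fold and 96.1% at 8-fold. The draws were binomial counts, which the interval assumes, so they check the calculation and not its use on reads with PCR duplication. Scripts ran under Python 3.11.15 with matplotlib 3.10.9, pandas 2.3.3, scipy 1.17.1 and numpy 2.4.6.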

Additional observations from a re-analysis of the deposited data

How the results depend on the processing

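The ratio of mir163 shares (2.95) reversed to 0.723 with distinct tags counted once, to 0.290 with only tags longer than 35 nt and to 0.818 without the end with the most reads (also taken out of the library totals), the last added after the data were seen. It became 5.67 when scaled by the median ratio of 0.520. It was 2.61 without the most abundant precursor of each library and 2.59 with tags of 1 match. The fiery and wild-type shares of library reads were 1.71% and 2.36% with distinct tags, 0.132% and 0.455% with only tags longer than 35 nt, and 1.17% and 0.450% without the most abundant precursor of each library. With distinct tags counted once, the fiery loop-side cut held 3.33%, the step beyond the base-side cut 10% (wild type 12.5%), the fiery step towards the loop 6.67% and other ends 76.7% (wild type 81.2%). Counting longer tags alone gave 2.94%, 0% (wild type 0%), 11.8% and 67.6% (wild type 84.2%). The base-side cut then held 17.6% in fiery and 15.8% in wild type, with intervals that overlap widely, against 1.90% and 7.69% with all tags. Longer tags are 40 nt in fiery and up to 50 nt in wild type, so they cover unlike sets of ends. With only tags of 35 nt or less, the loop-side cut and the step towards the loop held 0% in fiery, the base-side cut 0% in both libraries, the step beyond it 97.2% and 65.0%, and other ends 2.85% and 35%. Both cuts and the step towards the loop lie far enough upstream that their tags are longer than 35 nt, and the step beyond the base-side cut gives tags of 30 to 33 nt. With a window 1 nt narrower, the fiery base-side cut held 0%, since its 6 reads lie 1 nt inside, and other ends 14.6%. Of 56 alternative values, 23 stayed within the counting interval, 30 did not and 3 reversed. No paired analysis was possible because each group has 1 library. Wild-type values rest on 39 reads.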

Other observations

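In the fiery library 2 mir163 tags of 34 and 35 nt did not end at 24884435. They began at 24884307 and 24884321, ended at 24884340 and 24884355, and had 1 read each.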
